A study of Schizosaccharomyces pombe with 2 samples.

Results

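The genes described here encode the machinery that starts transcription by RNA polymerase II in the fission yeast Schizosaccharomyces pombe: subunits of Mediator, of TFIID and of the general transcription factors TFIIE, TFIIF and TFIIH. They were chosen by name, as every gene whose standard name is med, taf, tfa, tfb, tfg or srb followed by digits, together with tbp1. This rule found 44 of 5113 protein-coding genes, namely 19 Mediator genes, 15 TFIID genes and 10 genes of TFIIE, TFIIF and TFIIH. Several subunits carry other symbols and were found by no part of the rule. Among them are TFIIB (sua7), TFIIA (toa1 and toa2) and the TFIIH kinase and helicase subunits. They appear at the end as companions.

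The libraries were made by 3' READS, a sequencing method in which each read marks the end of a polyadenylated transcript. Both came from wild-type cells in exponential growth at 30 °C in YPD, a rich medium, and are replicates A and B of a single group, so values are compared between genes and not between conditions. Nothing in the labels tells whether A and B grew as separate cultures, and their spread may be technical. Over all 5289 features, the windows of positions 1 to 400 held 50975346 reads (A) and 54747466 reads (B), and a gene was called measured with at least 50 of them in each replicate.

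Mediator is a large coactivator that passes signals from DNA-bound regulators to RNA polymerase II; its head and middle modules contact the polymerase, its tail contacts activators, and a detachable module carries a cyclin-dependent kinase. TFIID, built from the TATA-binding protein and its associated factors (TAFs), recognises promoters, after which TFIIF and the polymerase, TFIIE and TFIIH complete the initiation complex and open the DNA. The transcripts of these genes are themselves cleaved and polyadenylated downstream of the stop codon, usually after a hexamer related to AATAAA, and the place of cleavage sets the length of the 3' untranslated region. Subunit roles are given as known from fission yeast or from the budding yeast and human counterparts.

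The ends used by 10 members show the range found. Each sequence is the 30 bases of the gene's strand up to and including its most used poly(A) position, in assembly ASM294v3, with the hexamer in capitals where a search for AATAAA and its single-base variants found one within these bases. The first 6 hold AATAAA itself. The TAF5 pair taf5 and taf51 ended at nearly the same distance from the stop codon with and without a hexamer, tbp1 ended almost entirely at 1 base, and srb7 and tfb2 had the most reads.
taf5 (SPCC5E4.03c, chrIII:640121-640150, minus strand): agttagataAATAAAccttttttgatcttc
med20 (SPAC17G8.05, chrI:2351009-2351038, plus strand): aacgcacatagAATAAAaaagtatcaattt
tfa1 (SPAC458.07, chrI:4746184-4746213, plus strand): aAATAAAtgttaatttatttttttaacagt
taf9 (SPAC12G12.05c, chrI:339051-339080, plus strand): tgggtAATAAAtcgtttacagttataaggt
taf13 (SPCC1494.02c, chrIII:2317989-2318018, minus strand): tattacgcttAATAAAtttattttgacatg
med11 (SPAC644.10, chrI:2692204-2692233, plus strand): caacgatcaatAATAAAatgtttcacttac
taf51 (SPBC15D4.14, chrII:3035859-3035888, plus strand): ttcctaaatatcatgtacattatggcccgc
tbp1 (SPAC29E6.08, chrI:4416839-4416868, plus strand): actgatctgtgagtttcttcttttacggcg
srb7 (SPBC1604.10, chrII:3912839-3912868, minus strand): atctttttgaatcgatttaCATAAAtatct
tfb2 (SPBC13G1.13, chrII:3755491-3755520, plus strand): aattagaaaatattaAATTAAtctcaaatc

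Of the 44 genes, 32 were measured, beside 74.7% of all protein-coding genes. By complex, 12 of 15 TFIID genes and 9 of 10 genes of TFIIE, TFIIF and TFIIH were measured, and 11 of 19 Mediator genes. Within Mediator the measured genes were 5 of 7 in the head, 4 of 6 in the middle, 1 of 2 in the backbone and tail, and 1 of 4 in the kinase module. In all, the 44 genes took a share of 0.0792% of the window reads of replicate A, with a Wilson interval at the 95% level of 0.0784% to 0.0799%. In replicate B the share was 0.0672%, with an interval of 0.0665% to 0.0679%. Several reads can stem from 1 molecule, so these intervals, and any limit set by a count of 0, cover counting error only.

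Over the 32 measured genes, the read-weighted mean position after the stop codon had a median of 146 nt, against 143 nt over the 3818 measured protein-coding genes, and 15 members lay below that value beside 50% of all genes. Taken by replicate, the median was 148 nt (A) and 145 nt (B) for the members, against 144 and 143 nt for all measured genes. The members were more spread out than their median shows: the 25th and 75th percentiles were 79.3 and 276 nt, against 86.5 and 224 nt. In steps of 50 nt from the stop codon, 4, 10, 3, 3, 3, 4, 5 and 0 members fell into the successive bins. The shares of all measured genes in the same bins were 8.49%, 22.5%, 21.4%, 16.0%, 12.8%, 9.43%, 6.52% and 2.83%. Thus 9 members ended between 250 and 350 nt, and no more than 3 lay in any bin between 100 and 250 nt. No test was made of these counts. By complex, the median was 199 nt for Mediator, 156 nt for TFIID and 84.5 nt for TFIIE, TFIIF and TFIIH, each with values on both sides of the genome median.

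**Figure D1:**
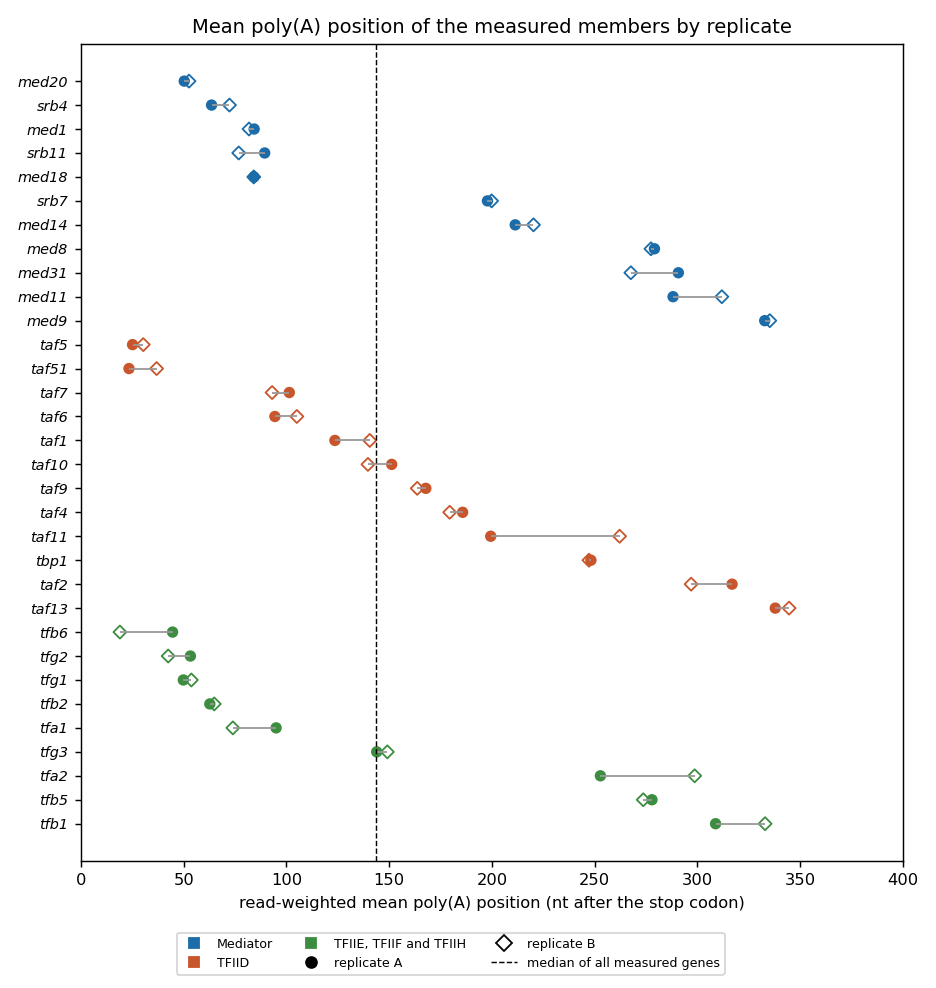
Read-weighted mean poly(A) position (nt after the stop codon) of the 32 measured genes in replicate A (filled circles) and replicate B (open diamonds), grouped by complex and ordered by their mean; the dashed line is the median of all measured genes, 143 nt. Mean positions run from 27.7 nt (taf5) to 341 nt (taf13), and the replicates of taf11, tfa2 and tfb6 lie visibly apart.

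The Mediator head was split between short and long 3' ends. Its core scaffold gene srb4, which encodes Med17, had mean positions of 63.6 nt in A and 72.3 nt in B (67.9 ± 6.16 nt, SD, n = 2). The genes of the movable jaw, med18 and med20, also ended early. For med18 the mean positions were 84.2 and 84.1 nt in A and B (84.2 ± 0.0436 nt), the closest replicate means of any measured member. Its single sites were less alike: position 60 had 63 reads in A and none in B, and position 21 had 61 in B and none in A. For med20 the mean positions were 50.3 and 52.6 nt (51.4 ± 1.64 nt). By contrast med8, whose product holds the jaw to the rest of the head, ended at 279 and 277 nt (278 ± 1.21 nt), and med11 at 288 and 312 nt (300.04 ± 16.8 nt). The med8 reads were tight, with a width of 3 nt in each replicate and 81.2 ± 10.7% of them at position 277. Width here means the stretch that holds the middle of a gene's reads, between their 10% and 90% points. Those of med11 formed 2 clusters, at 134 to 186 nt with 33.8% and 23.2% of the reads in A and B, and at 357 to 363 nt with 66.2% and 76.8%; with positions 1 to 300 only, its mean position was 152 nt. A cluster is a run of used positions with gaps of at most 20 nt that holds at least 10% of the gene's reads in each replicate.

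The 2 other head genes were not measured. The gene med6, which encodes the subunit at the joint of head and middle, had 35 and 21 window reads in A and B, and srb6, which encodes Med22, the partner of Med11, had 53 and 0. For both, the annotated transcript end lies far past the window, 1674 and 1639 nt after the stop codon. That of the measured head gene med8 lies past it too, at 1809 nt.

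In the middle module srb7, which encodes Med21, was the gene with the most reads of all members. Its positions were 198 and 200 nt in A and B (199 ± 1.43 nt), with 40.4 ± 5.81% of the reads at position 211 and 1 cluster from 151 to 253 nt. The gene med1 ended at 84.3 and 81.8 nt (83.1 ± 1.76 nt), and med9 at 333 and 335 nt (334 ± 1.74 nt), so the middle too held early and late ends with close replicates. In med9 88.8 ± 1.46% of the reads lay between 308 and 365 nt, and a minor cluster at 133 to 233 nt held 11.2 ± 1.46%. The replicates of med31 were unlike: the mean positions were 291 and 268 nt (279 ± 16.3 nt), and the profiles overlapped by 19.1% (the sum over positions of the smaller of the 2 shares), the lowest value of the 32 genes. The median overlap was 75.6% for the members and 74.3% for all measured genes. Its cluster at 270 to 297 nt held 60.2% of the reads in A and 30.8% in B, and that at 327 to 339 nt 18.8% and 50.2%. Not measured were med7, whose product forms the hinge of the module with Med21 (126 and 33 reads), and med10 (18 and 19 reads); their annotated ends are 1950 and 1323 nt downstream of the stop codon.

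The backbone gene med14, whose product ties head, middle and tail together, had positions of 211 and 220 nt (216 ± 6.29 nt). A cluster at 132 to 144 nt held 37.4% of its reads in A and 18.6% in B, and the main one at 265 to 286 nt 57.4% and 70.5%. Of the tail gene med15, replicate A had no read in the window and replicate B 51.

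The kinase module had the fewest reads. Of its 4 genes, the cyclin C gene srb11 was measured, at 89.4 and 76.8 nt (83.1 ± 8.93 nt). Its reads were scattered over 3 clusters, at 15 to 48 nt (44.0 ± 0.578%), 114 to 145 nt (29.1 ± 21.7%) and position 211 (10.3 ± 0.0177%). The kinase gene srb10 had no window read in either replicate, which allows up to 0.0589 reads per 1000000 window reads in A and 0.0548 in B (3 reads each). The gene of Med12, srb8, had 3 reads in each replicate, and that of Med13, med13, had 43 and 17. For srb8 there were more reads inside the coding sequence, 13 in A and 18 in B. None of these 3 genes has an annotated 3' untranslated region in the assembly, so it cannot be said how much of their transcripts the window would hold.

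**Figure D2:**
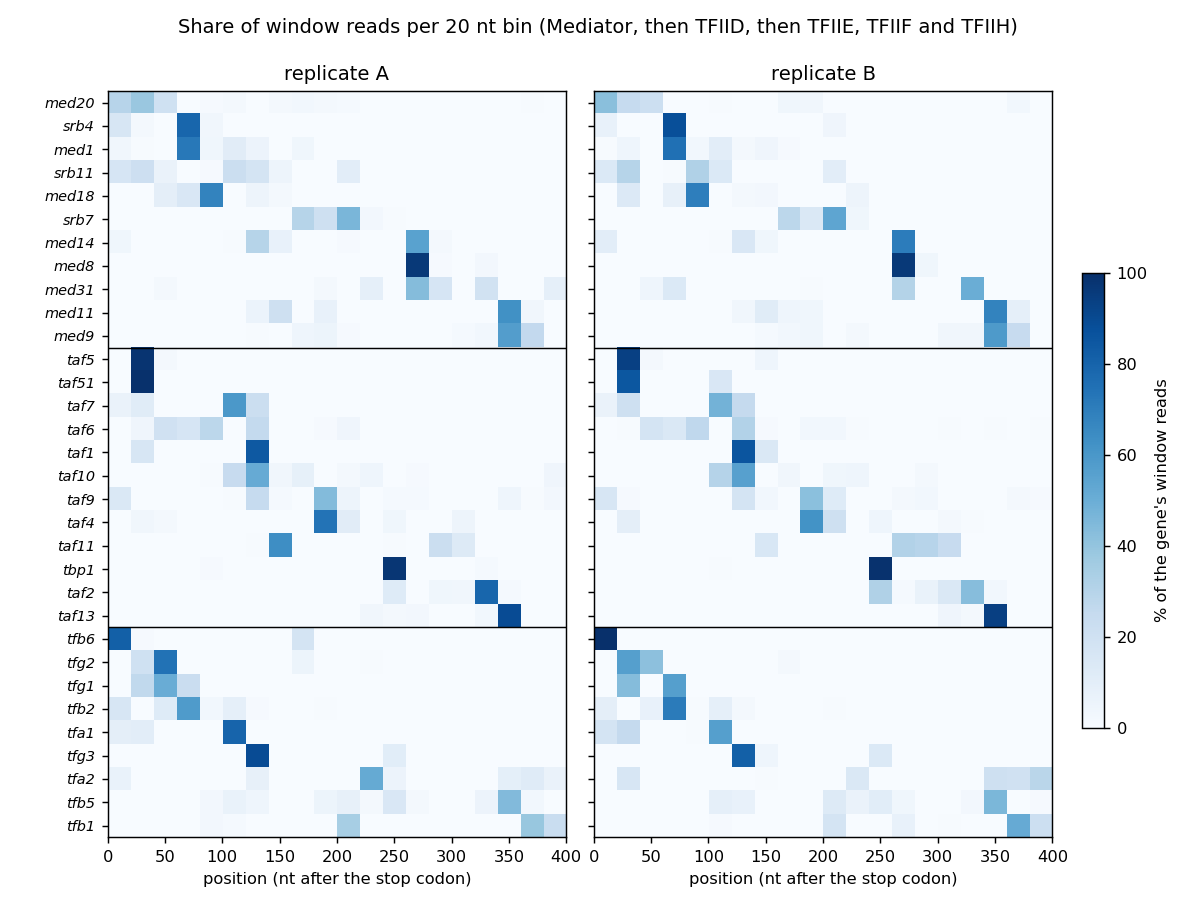
Share of each measured gene's window reads in bins of 20 nt (colour, 0 to 100%), by position after the stop codon, for replicate A (left) and replicate B (right), with Mediator at the top, then TFIID, then TFIIE, TFIIF and TFIIH. Genes such as tbp1, med8, taf5 and taf13 fill 1 dark bin in both replicates, while srb11, taf6, tfb5 and taf9 are spread over several. Others, such as taf11, tfa2, med31 and tfg1, change their darkest bin between replicates.

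In TFIID, tbp1, which encodes the TATA-binding protein, had the sharpest end of all members. Its mean positions were 248 and 247 nt in A and B (248 ± 0.668 nt, SD, n = 2), and 97.4 ± 1.5% of its reads lay at position 249, with 2256 reads there in A and 2435 in B. The width was 0 nt in both replicates, which was the case for 3.43% of all measured genes and for no other member. The annotated end lies at 532 nt, past the window. Reads inside the tbp1 coding sequence numbered 337 and 401, or 12.6% of its coding and window reads in A and 13.9% in B, so it is 1 of 4 members with at least 10% in each replicate, beside 10.9% of all protein-coding genes and 4.48% of the measured ones. The others were med11 (22.9% and 10.2%) and, with few reads, srb8 and med15.

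The TAF5 paralogs had the lowest mean positions over both replicates, at nearly the same distance from the stop codon; the most used base of tfb6 and of med20, at 19 nt, lay nearer to it, and in replicate B tfb6 had the lower mean, 19 nt. The WD-repeat gene taf5 had positions of 25.2 and 30.3 nt (27.7 ± 3.67 nt) with its most used base at 24 nt, and taf51 had 23.4 and 36.9 nt (30.1 ± 9.51 nt) with its most used base at 23 nt. In bins of 20 nt their profiles overlapped by 92.3%, the highest of the 496 pairs of measured members, over which the median was 5.53%. The 30 bases up to the site differ between them, taf5 with AATAAA and taf51 with no hexamer in the searched stretch. Replicate B of taf51 held 17 of its 120 reads at position 116, where A had no read.

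The other TAF genes lay farther out. The scaffold gene taf1 ended at 124 and 141 nt (132 ± 12.0 nt), and taf7, whose product binds Taf1, at 101.4 and 93.0 nt (97.2 ± 5.93 nt), with clusters at 14 to 37 nt (22.6 ± 6.5%) and 108 to 131 nt (77.4 ± 6.47%). Late ends were found for taf2, which contacts promoter DNA, at 317 and 297 nt (307 ± 14.1 nt), and for taf13 at 338 and 345 nt (341 ± 4.75 nt), the largest mean position of any measured member. In taf13 84.4 ± 4.21% of the reads lay at position 346. The gene taf4 ended at 186 and 179 nt (183 ± 4.45 nt) and taf10 at 151 and 140 nt (145 ± 8.16 nt).

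Several TAFs pair through histone folds, and the measured partners did not end at like distances. Of the pair Taf6 and Taf9, both also found in SAGA, taf6 ended at 94.4 and 105 nt (99.7 ± 7.56 nt) and taf9 at 168 and 164 nt (166 ± 2.96 nt). The 5100 and 5366 reads of taf6 were spread over an effective 13.3 sites in A and 12.7 in B, more than in any other member, with 21.7 ± 0.0779% at position 85. They lay mostly at 28 to 89 nt (64.1 ± 6.28%) and at 126 to 148 nt (28.6 ± 4.46%). The taf9 reads fell into 3 clusters that kept their order in both replicates, at 14 to 27 nt (15.7 ± 1.99%), 116 to 148 nt (23.9 ± 4.37%) and 190 to 220 nt (51.3 ± 3.94%). Of the pair Taf11 and Taf13, taf11 ended at 199 and 262 nt (231 ± 44.3 nt), against the late and narrow end of taf13. The 62.7 nt between its replicates was the largest difference among the members: a cluster at 129 to 151 nt held 64.3% of the reads in A and 15.4% in B, and one at 284 to 304 nt held 35.1% and 53.7%. The partners of Taf4 and Taf10 were not measured: taf12 had 13 and 0 reads, taf3 had 3 and 2, and taf8 had 11 and 12.

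The genes of TFIIE, which recruits TFIIH, ended far apart. The large subunit gene tfa1 had positions of 95 and 74 nt (84.5 ± 14.9 nt), with clusters at 19 to 35 nt (19.8% of the reads in A, 43.0% in B) and 100 to 116 nt (80.0% and 57.0%). The small subunit gene tfa2 had positions of 253 and 299 nt (276 ± 32.4 nt). Its reads were divided differently in the replicates: a cluster at 236 to 250 nt held 57.6% in A and 14.7% in B, and one at 359 to 391 nt 27.8% and 69.0%.

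Of the genes of TFIIF, which escorts the polymerase to the promoter, tfg1 and tfg2 ended close to the stop codon and tfg3 ended just above the median of all measured genes. The alpha subunit gene tfg1 ended at 49.9 and 53.8 nt (51.8 ± 2.75 nt) and the beta subunit gene tfg2 at 53.3 and 42.5 nt (47.9 ± 7.64 nt), closer together than the other measured partner pairs named here. Their profiles in bins of 20 nt overlapped by 60.4%. Taken by single positions, replicates A and B overlapped by 38.0% in tfg1 and 54.7% in tfg2, against a median of 75.6% for the members. The most used base of tfg1 was at 53 nt in A and 34 nt in B. The YEATS-domain gene tfg3, whose product is annotated in TFIID and in chromatin complexes as well, ended at 144 and 149 nt (147 ± 3.66 nt), with a cluster at 129 to 146 nt that held 87.8 ± 2.39% of its reads and one at 248 to 255 nt with 12.2 ± 2.39%.

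The genes of TFIIH, which opens the promoter and takes part in DNA repair, spanned most of the window. The core subunit gene tfb2 ended at 62.7 and 64.9 nt (63.8 ± 1.52 nt). The gene of its small binding partner, tfb5, ended at 278 and 274 nt (276 ± 3.0 nt), over 3 clusters with nearly equal shares in A and B: 15.5 ± 1.51% at 100 to 144 nt, 30.1 ± 0.210% at 181 to 255 nt and 49.3 ± 0.852% at 333 to 353 nt. The gene tfb1 had positions of 309 and 333 nt (321 ± 17.0 nt), with 34.4% of its reads in A and 17.9% in B at 210 to 212 nt and the main share, 67.3 ± 7.80%, at 370 to 387 nt. For tfb6 the positions were 44.6 and 19 nt (31.8 ± 18.1 nt). All 94 reads of tfb6 in B lay at position 19, where A had 97 of 119, with 21 more at position 164. The gene tfb4 was not measured, with 25 and 2 window reads, and replicate B had 36 reads inside its coding sequence.

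Across the 32 genes, 14 had 2 or more clusters, beside 34.7% of all measured genes, and 18 had 1. The share was 5 of 11 in Mediator, 4 of 12 in TFIID and 5 of 9 in TFIIE, TFIIF and TFIIH. The median width was 86.5 nt, against 62.5 nt over all measured genes, while the median effective number of sites was 4.42, against 4.73, and the share of reads at the most used position had a median of 45.7%, against 43.0%. Width also differed with depth: over all measured genes its median was 82.5 nt with under 200 reads in the shallower replicate, 78.5 nt with at least 200 and under 500, 69.25 nt with at least 500 and under 1000, and 37 nt with at least 1000. In the same classes the 10, 8, 5 and 9 members had medians of 115.25, 93, 42.5 and 81 nt, so they were above all measured genes in every class but that of 500 to 1000 reads, and no test was made of these values. The effective number of sites is the exponential of the Shannon entropy of a profile, and equals the number of sites when all are used alike.

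The replicates of each member were compared next, and no test was made of these counts. The mean positions differed by over 10 nt in 14 of the 32 genes, beside 33.9% of all measured genes, and by over 20 nt in 7, beside 17.2%. The median difference was 8.54 nt, against 5.18 nt. Depth differed too: the shallower replicate of a member had a median of 411.5 reads, against 509 over all measured genes, and its part in these counts was not tested. Differences over 10 nt were found in 8 of 10 members with under 200 reads in the shallower replicate, in 4 of 8 with at least 200 and under 500, in 1 of 5 with at least 500 and under 1000, and in 1 of 9 with at least 1000. Over all measured genes the shares in these classes were 57.5%, 44.8%, 31.1% and 10.8%. The 1 deep member past 10 nt was taf6, by 10.7 nt. The same base was the most used in both replicates for 25 members, beside 72.4% of all measured genes. As a description across genes, which are not independent replicates, Pearson's r between the replicates' positions was 0.986 over the 32 members and 0.973 over all 3818.

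**Figure D3:**
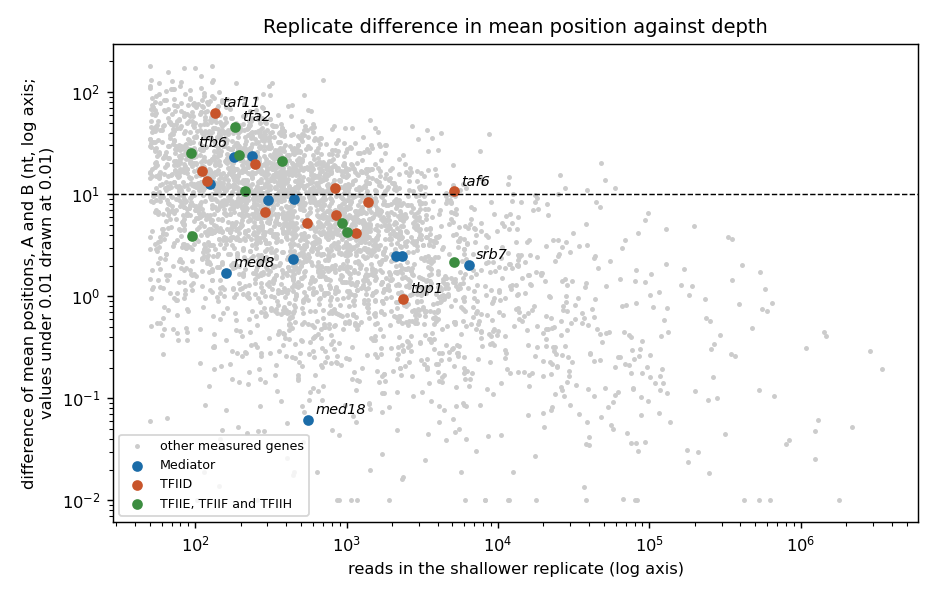
Absolute difference between the mean positions of replicates A and B (nt, log axis) against the reads in the shallower replicate (log axis), for the 32 measured members (coloured by complex) and the other measured genes (grey); the dashed line is 10 nt. Differences are smaller at greater depth in the members as in the other genes, with taf11, tfa2 and tfb6 highest at under 200 reads and med18 and tbp1 lowest.

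A hexamer search took AATAAA and its 18 single-base variants, on the gene's strand only, starting 10 to 40 nt before a gene's most used position; overlapping matches were allowed and AATAAA was preferred, then the match nearest the site. The most used position is that over both replicates. In med31, srb11, taf11, taf2, tfa1, tfa2 and tfg1 the replicates had different ones, such as 114 nt in A and 108 nt in B for tfa1. For taf11 the position taken, 288 nt, was the most used in neither replicate (149 nt in A, 263 nt in B). The same held for med31, at 277 nt (274 nt in A, 337 nt in B). The search found a match for 26 members, beside 72.3% of all measured genes, and AATAAA itself for 6, beside 20.8%. The AATAAA of med11, med20, taf13, taf5, taf9 and tfa1 started 18, 18, 19, 20, 24 and 28 nt upstream of the site. After AATAAA the most frequent matches were AATGAA (med1, med14 and taf7) and AATACA (srb11, srb4 and taf4). All 11 measured Mediator genes had a match, against 8 of 12 in TFIID and 7 of 9 in TFIIE, TFIIF and TFIIH. The genes with none were taf10, taf51, taf6, tbp1, tfb6 and tfg2. A match is a description of these letters, and no match says only that they are not in this stretch.

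The 30 bases up to the site had a median A and T content of 73.3% in the members and 76.7% over all measured genes; that of tbp1 was 56.7%. No most used position fell on an A, in the members or in any measured gene, and the next base was an A for 31 of the 32 members, beside 97.6% of all measured genes. A cleavage before or within a run of A cannot be told apart once the tail is added, so each site is placed no more finely than that run. None of the members had 7 or more A in the 10 bases after the site, beside 6.08% of all measured genes.

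For 4 members the most used site lay past the near end of the coding sequence of the next gene, beside 3.72% of all measured genes. All 4 face a convergent neighbour. The coding sequence of med8 ends 2 nt before that of ral2, so the med8 site at 277 nt lies inside ral2 on the other strand. Likewise tfg2 abuts mfr1 with 0 nt between the coding sequences and ended at 50 nt, med11 and pkp1 are 156 nt apart with the med11 site at 359 nt, and tfa1 and sin1 are 93 nt apart with the tfa1 site at 114 nt. A convergent neighbour was found for 21 of the 32 members, beside 58.4% of all measured genes, and for 10 of the 11 measured Mediator genes. The distance to the next coding sequence had a median of 454 nt in the members, 319 nt in Mediator and 498 nt over all measured genes. As a description, Spearman's rho of mean position with that distance was 0.32 over the 32 members and 0.37 over all measured genes.

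An annotated transcript end past the 400 nt window was found for 9 of the 32 measured members, beside 23.2% of all measured genes, and for 7 of the 12 others, beside 45.4% of all genes not measured. The measured ones are med8, med31, taf4, taf6, taf9, tbp1, tfb5, tfb6 and tfg2. Their most used sites nevertheless lay within the window, from 19 nt in tfb6 to 349 nt in tfb5. Reads beyond 400 nt were not analysed here, so a mean position is that of the ends within the window. The most used site minus the annotated end had a median of -55.5 nt over the 32 members. Over the 3694 measured genes with an annotated end it was -65 nt. In the members it ran from -1902 nt in tfg2 to 170 nt in taf2, with 139 nt in taf11 and 83 nt in med11. For 2 members the annotated end and the site were within 1 nt, and the share of all measured genes within that limit was not computed. In tfb1 the annotated end is at 369 nt and the site was at 370 nt in both replicates. In tfa2 both are at 236 nt, but only in replicate A was this the most used position, with 198 reads against 27 in B, where the most used position was 381 nt.

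Levels were taken as window reads per 1000000 window reads of the library (rpm), with 1 read per transcript end and so not divided by length. Over all 44 members the median was 5.53, with 7.11 in replicate A and 4.18 in replicate B, against 6.33 over all protein-coding genes, with 7.04 and 5.50. The spread was wide. The Med21 gene srb7 had 138 and 117 rpm in A and B (128 ± 14.9, SD, n = 2), the TFIIH gene tfb2 had 101.3 and 115 (108 ± 10.01), and taf6 had 100.05 and 98.0 (99.0 ± 1.44). These levels lie close together for their spread: the lower value of srb7 was 117 and the higher value of tfb2 115, and the means of tfb2 and taf6 differed by less than the SD of tfb2. Next came tbp1 with 46.0 and 45.2 (45.6 ± 0.547) and med9 with 48.6 and 42.6 (45.6 ± 4.25), then med1 with 43.6 and 39.0 (41.3 ± 3.26) and taf7 with 38.9 and 25.3 (32.1 ± 9.66).

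Subunits of the same complex thus differed widely in reads. In Mediator the median of the 7 head genes was 6.60 rpm, of the 6 middle genes 22.6, and of the 4 kinase module genes 0.317. In TFIID, taf6 and tbp1 stood at the upper end and taf8 (0.217 ± 0.00240), taf12 (0.128 ± 0.180) and taf3 (0.0477 ± 0.0158) at the lower. A low window level can come from transcripts that end past the window as well as from few transcripts, and these cannot be told apart here. The replicates differed most among measured members for taf51, with a log2 ratio of A over B of 1.89, and taf5, with 1.27. The median was 0.36 for the measured members and 0.31 over all measured protein-coding genes.

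**Figure D4:**
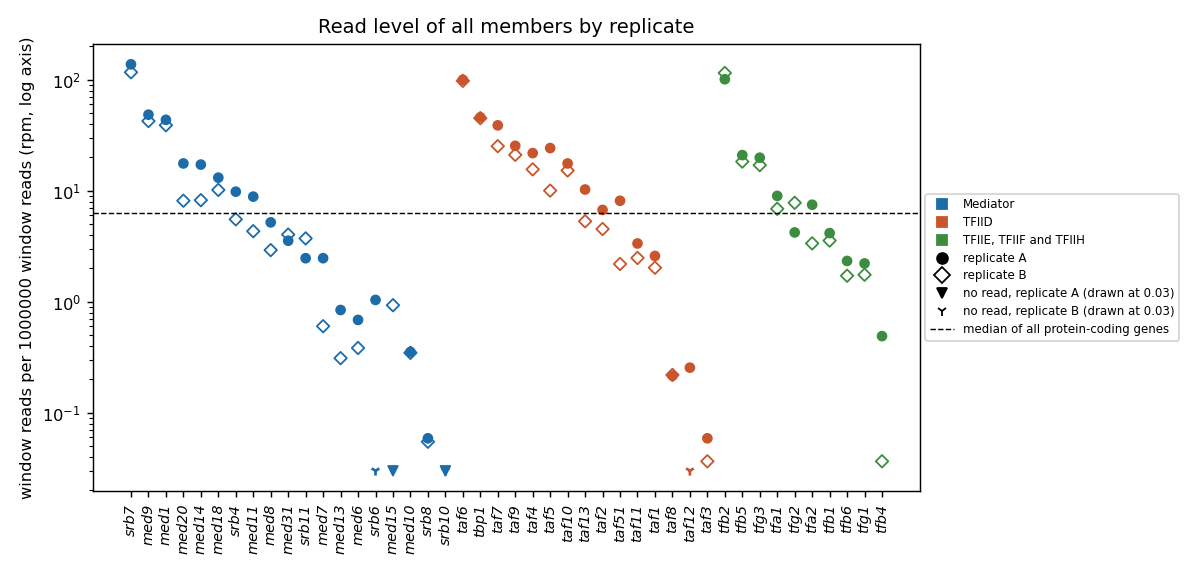
Window reads per 1000000 window reads (rpm, log axis) of all 44 genes in replicate A (filled circles) and replicate B (open diamonds), by complex; genes without a read are drawn at 0.03, and the dashed line is the median of all protein-coding genes, 6.33. Values span from over 100 for srb7, tfb2 and taf6 to no read in either replicate for srb10.

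Companion genes, from lists chosen by function, set these values in context. Of 13 transcription factor genes under other symbols, 9 were measured, with a median position of 114 nt. This list goes beyond initiation by RNA polymerase II: it holds the elongation factor gene tfs1 (TFIIS) and the RNA polymerase III factor genes brf1 and bdp1 (TFIIIB). The TFIIA large subunit gene toa1 ended at 187 ± 0.266 nt (SD, n = 2) and the TFIIH kinase gene mcs6 at 341 ± 0.707 nt, whereas the TFIIB gene sua7 (9 and 0 window reads in A and B), the TFIIA small subunit gene toa2 (2 and 53) and the TFIIH translocase gene ptr8 (42 and 37) were not measured. In sua7 44 reads lay inside the coding sequence in each replicate. Of 3 further Mediator genes 2 were measured, with a median of 150 nt. SAGA, which shares TAFs with TFIID, had 11 of 13 genes measured and a median of 167 nt. The subunits of RNA polymerase II had 9 of 11 measured and a median of 218 nt. The gene of its largest subunit, rpb1, ended at 105 ± 2.16 nt. The median width was 86.5 nt in the members and 13 nt in the 9 polymerase genes. In the measured genes of the other lists it was 48 nt (transcription factors), 189.75 nt (Mediator) and 74.5 nt (SAGA). Levels differed too, with a median of 19.5 rpm over the 11 polymerase genes, against 5.53 over the 44 members. The part of depth in these widths was not tested.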

How the data were processed

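Poly(A) sites were mapped by 3' READS in 2 libraries of wild-type cells, replicates A and B of 1 group. The submitters' processing notes name Bowtie; the version, the settings and the build were not given in the sources used here, nor was the treatment of reads that match several copies. The authors deposited, per the file headers, a table of 5289 features for each replicate and another for both merged. The deposited read values (signal) are the reads at the most used position, in the window of positions 1 to 400, and inside the coding sequence, and the level at each position is given by the authors as a percent of the gene's highest position. The table totals are not whole numbers. Totals of at most 100 reads were whole multiples of a step, 0.930 in A and 0.869 in B: 100% of 1209 and of 1347 such values came out whole within a tolerance of 0.1, and division by the step turned all values into reads. With 1 group there was nothing to compare by a count test, and none was run.

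The stop codons of all 5113 protein-coding genes were equal to those of RefSeq assembly ASM294v3, which gave sequences, annotated ends and neighbours; pseudogenes were left out. Per gene and replicate, mean position, width, effective number of sites, clusters and hexamers were computed in Python 3.11.15 with numpy 2.4.6, pandas 2.3.3 and scipy 1.17.1, figures with matplotlib 3.10.9. The mean positions differed from the deposited ones by at most 0.0950 nt. The scripts were tested on simulated profiles. Every member is named with its values or as not measured, companions by counts, medians and 6 fixed genes. The members and lists were chosen with earlier results of these data known, and subunits were sorted into modules after the files had been read. Alternatives were single replicates, other read minimums, positions 1 to 300, other measures of position and width, the merged table, and other limits for clusters, hexamers and levels. Between A and B the reads per gene varied beyond sampling noise (chi-square 342 times its degrees of freedom), so they were not counted as 1 sample; their spread may still be technical. Fewer cells, and less RNA per cell, cannot be told apart in these bulk samples.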

Additional observations from a re-analysis of the deposited data

How the results depend on the processing

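The median position of the members, 146 nt, was 186 nt with no minimum beyond 1 read in each replicate, 140 nt with positions 1 to 300, 139 nt with the median or the most used position of each gene, 132 nt over the 23 genes with an annotated end within 400 nt, and 148 to 149 nt with a single replicate. The median width, 86.5 nt, was 77.75 nt with no minimum and 57.5 nt with positions 1 to 300, and 92 to 92.5 nt with a single replicate; measured otherwise, the spread was an SD of 40.2 nt or 4.42 effective sites. The genes with 2 or more clusters, 14 of 32, were 4 of 32 at 20% of the reads. They were 9 of 22 at a minimum of 200 reads and 9 of 31 with positions 1 to 300. Single replicates, where a cluster had to pass in 1 replicate only, gave 21 of 34 (A) and 17 of 33 (B). The genes with a hexamer, 26 of 32, were 6 of 32 with AATAAA alone, and 27 of 34 (A) and 25 of 33 (B) with single replicates. The genes whose replicates differed by over 10 nt, 14 of 32, became 7 of 32 at over 20 nt, and 6 of 22 with at least 200 reads. Beside these counts, the share of all measured genes was 20.8% for AATAAA alone and 17.2% for over 20 nt. At the other alternative settings for clusters, hexamers and replicate differences no such share was computed, so those counts describe the members alone. The minimum of 200 reads and the limit on annotated ends use fewer genes by construction, no minimum uses more, and positions 1 to 300 shorten the window; beyond that the cause was not tested. The median level stayed between 4.18 and 7.32 rpm under its alternatives. With positions 1 to 300, taf13 had too few reads, and 4 mean positions moved by over 1.5 times: those of med11, med9, tfa2 and tfb1 became 152, 186, 168 and 211 nt. With the most used position, med20 and tfb6 were both at 19 nt, srb11 at 31 nt and tfg1 at 34 nt; with the median of the reads, med20 was at 34 nt and tfb6 at 19 nt, as tfb6 was without replicate A. No paired analysis was possible because there is 1 group. Depth limits the genes with under 200 reads most, and the window hides ends beyond 400 nt.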

Other observations

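Single positions used in 1 replicate and not in the other were common over all measured genes, and the members had them too. With a limit set after the profiles had been seen, at least 20 reads at a position in 1 replicate and none in the other, 24 of the 32 measured members had 69 such positions, beside 85.5% of all measured genes with at least 1. Some held a large share of a gene's reads. In taf11, position 149 had 70 reads in replicate A (40.9% of its reads) and none in B, and position 263 had 42 reads in B (30.9%) and none in A. In med31, position 274 had 58 reads in A and none in B, and in tfg1, position 53 had 41 reads in A and none in B. In tfg2, position 39 had 77 reads in B and none in A. The part of these positions in the replicate differences of the mean positions was not tested.

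After taf5 and taf51, the pairs of members with the most alike profiles in bins of 20 nt were taf1 and tfg3 (87.2% overlap) and srb4 and tfb2 (78.6%). Next came tfb2 and med1 (78.5%), srb4 and med1 (78.0%), tfa1 and taf7 (76.3%), and med11 and med9 (72.2%). The product of tfg3 is annotated in TFIID, the complex of taf1. The pairs srb4 and med1, and med11 and med9, are Mediator genes, each of the head and of the middle module. By contrast srb4 and tfb2, tfb2 and med1, and tfa1 and taf7 are genes of different complexes. Likeness of this kind follows from sites in the same bins. How many of all 496 pairs belong to the same complex was not counted, and a link between complex and profile was not tested.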
